A study of Mus musculus with 6 samples.

Results

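Heat shock proteins and their DnaJ cochaperones were examined in brain RNA of APP/PS1 mice given the compound AVE0991 or saline. The genes were those of the deposited expression table whose symbols begin with Dnaj, Hspa, Hspb, Hspd, Hspe, Hsph or Hsp90, with pseudogenes and 1 small heat shock protein gene left out. The rule found 72 genes among 36210 gene rows. It works on symbols, so it also took in Hspbp1 and Hspbap1, which encode proteins that bind heat shock proteins, and Hspb11, which encodes an intraflagellar transport protein. The 72 genes were sorted into 9 groups by role, from the cytosolic HSP70 family to DnaJ C proteins of the synapse.

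Both groups were 8 months old APP/PS1 mice, a transgenic line with mutant human genes for presenilin and the amyloid precursor protein that develops amyloid plaques, so no library came from a mouse without the transgenes. The vehicle group (3 libraries) received 0.9% saline and the AVE0991 group (3 libraries) received 10 mg per kg AVE0991, each injected into the peritoneum daily for 30 days. AVE0991 is a synthetic agonist of the receptor for angiotensin-(1-7). The labels name the cells as adult astrocytes and do not say that libraries came from separate animals, so each p-value reflects the spread among libraries, which may be technical. The series title concerns inflammation mediated by astrocytes, and these genes are not among those it names.

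Heat shock proteins are molecular chaperones. HSP70 proteins bind unfolded stretches of other proteins in a cycle driven by ATP, DnaJ proteins deliver substrates to HSP70 and start ATP hydrolysis through their J domain, and HSP90 proteins act later on kinases, receptors and other near-native clients. Small heat shock proteins hold unfolding proteins without ATP, while HSP60 with HSP10 folds proteins inside mitochondria. In the endoplasmic reticulum (ER) the chaperones BiP and GRP94 are induced by the unfolded protein response, whereas in the cytosol the transcription factor HSF1 drives the inducible members. Constitutive members such as Hspa8 and Hsp90ab1 are abundant in the brain.

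Each library held 44583296 to 50066692 estimated counts on gene rows, and the 72 genes took 0.689% to 0.747% of them in vehicle and 0.604% to 0.695% in AVE0991 libraries. Although the labels name astrocytes, neuronal markers summed to 4678 to 5559 CPM (counts scaled to library size) in vehicle and 4408 to 4839 CPM in AVE0991 libraries, and oligodendrocyte markers to 3609 to 7876 and 5470 to 11782 CPM. The 9 astrocyte markers summed to 5597 to 6965 and 6316 to 7824 CPM, with 8 of 9 above 0 in log2 fold change. The 9 cerebellar markers summed to 241 to 255 CPM in vehicle libraries and to 254, 1739 and 1988 CPM in AVE0991 replicates 1, 2 and 3, so the last 2 libraries stand apart. Choroid plexus markers varied within groups, from 136 to 1393 CPM in vehicle and from 381 to 549 CPM in AVE0991 libraries. None of the 61 markers on the 9 lists was at 0 in any library. In bulk RNA, fewer cells of a type and less RNA per cell cannot be told apart.

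Levels per transcript length, in the authors' FPKM (fragments scaled to transcript length and library size), spanned a wide range. Hspa8, the constitutive cytosolic HSP70, led with 845 ± 80.3 FPKM in vehicle and 807 ± 69 FPKM in AVE0991 libraries (SD, n = 3 each). Hsp90ab1, the constitutive HSP90, followed with 471 ± 17.4 and 473 ± 64.2 FPKM, and Hsp90aa1, the stress-inducible HSP90, with 148 ± 5.62 and 97.7 ± 13.1 FPKM. These 3 genes made up 51.7% to 55.9% of the summed FPKM of the 72 genes in each library and were the only genes with a mean of at least 100 FPKM. Next in the order stood Dnajc5 (69 ± 4.74 FPKM in vehicle libraries), Hspa5 (74.9 ± 5.41), Dnajc6 (77 ± 3.49) and Hsp90b1 (63.4 ± 4.2), ranked by their mean over all 6 libraries. The 6-library means of Dnajc5, Hspa5 and Dnajc6 differed by less than their SDs, so the order among these neighbours is not resolved. In all, 43 genes had a mean of at least 10 FPKM and 10 a mean below 1 FPKM, among them Hspa1l and the small heat shock protein genes Hspb2, Hspb3, Hspb7 and Hspb9.

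**Figure D1:**
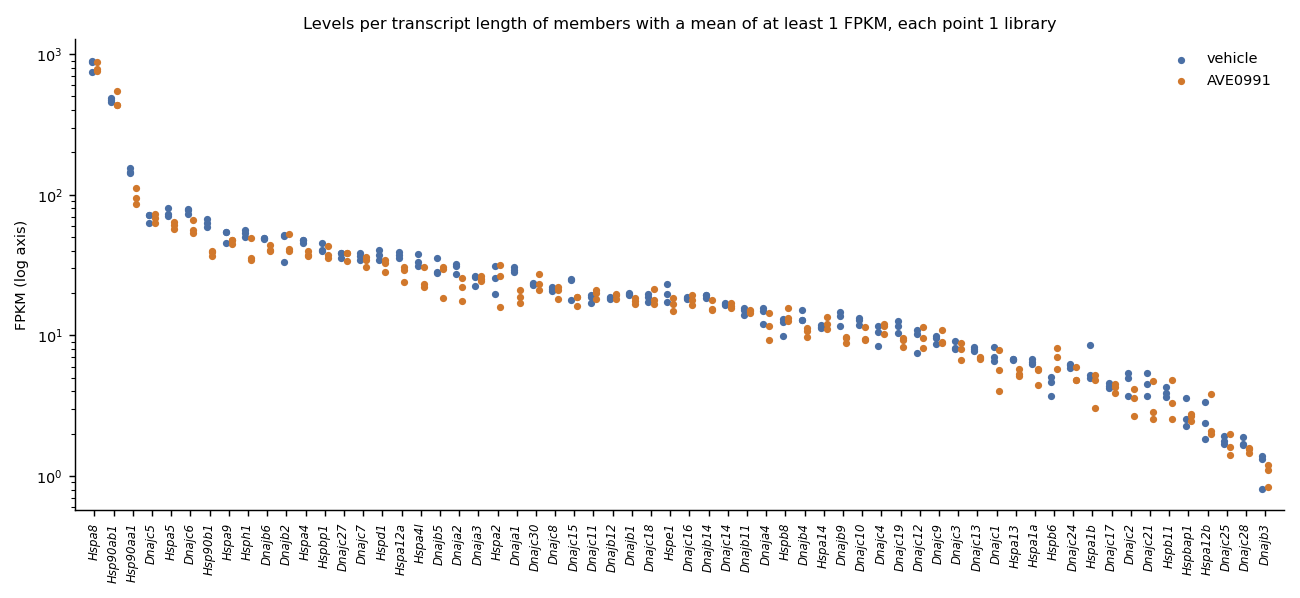
FPKM (log axis) of the 62 genes with a mean of at least 1 FPKM, ordered by their mean over 6 libraries, with 1 point per library (blue vehicle, orange AVE0991). Hspa8, Hsp90ab1 and Hsp90aa1 lie above the rest, and the orange points of Hsp90aa1 and Hsp90b1 lie below the blue ones.

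The comparison of AVE0991 with vehicle asked which of these chaperone genes differed after 30 days of treatment. Hsp90b1, which encodes the ER chaperone GRP94, fell 1.55-fold and was the only one of the 68 genes tested that passed an edgeR adjusted p under 0.05. That is 1.47% of them, against 0.83% of all 20363 genes called lower, and 0 were called higher, against 0.0344% of all genes. Across the 68 genes the median log2 fold change was -0.10, with 26 above 0 and 42 below, beside a median of -0.01 over all genes tested. The largest differences in either direction were -0.63 for Hsp90b1 and 0.61 for Hspb6. At an unadjusted p under 0.05 edgeR listed 13 of the 68 (19.1%), against 23.6% of all genes. The difference between these shares was not tested.

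The AVE0991 values lay wholly below the vehicle values for 16 of the 68 genes (23.5%), against 16.3% of all genes, and wholly above them for 5 (7.35%), against 14.3% of all genes. DESeq2, a second count test, called 5 of the 68 lower (7.35%, against 6.56% of all genes). These were Hsp90b1, Hspa13, Dnaja1, Hsp90aa1 and Dnajb9. It called 1 higher, Hspb6 (1.47%, against 4.97% of all genes). The median deviation of the 68 genes from the vehicle mean, in log2 CPM, was -0.07, -0.05 and -0.10 in AVE0991 replicates 1, 2 and 3 and -0.06, 0.00 and 0.03 in the vehicle libraries. The groups therefore overlapped on this measure. The 4 genes not tested were scarce. Dnajb8 had 0 counts in every library, where 3 counts equal 0.0599 to 0.0673 CPM. Dnajb7 reached 0.0199 CPM in 1 vehicle library, Dnajc5b 0.0441 and 0.117 CPM in 2 vehicle libraries, and Hspb7 0.0398 to 0.176 CPM across all libraries.

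**Figure D2:**
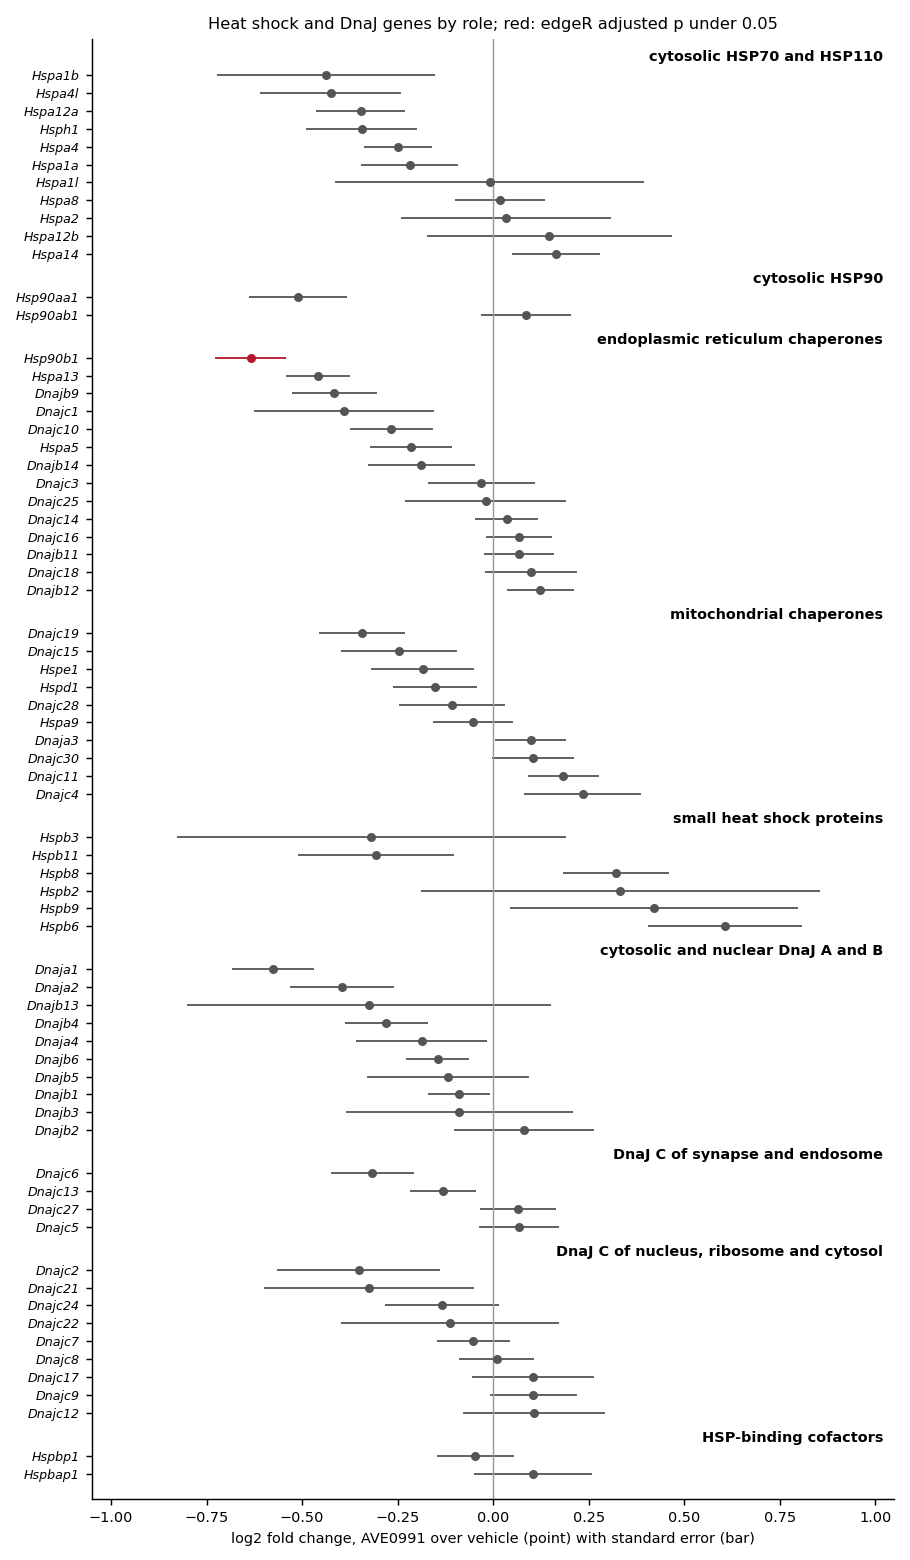
Log2 fold change of AVE0991 over vehicle (point) with its standard error (bar) for the 68 genes tested, grouped by role. Hsp90b1 (red, -0.63) is the gene with an edgeR adjusted p under 0.05, 9 of the 10 cytosolic DnaJ A and B genes lie below 0, and Hspb6 (0.61) lies farthest above it.

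The ER group of 14 genes held the call. Hsp90b1 stood at 158, 163 and 177 CPM in vehicle replicates 1, 2 and 3 and at 108, 111 and 103 CPM in AVE0991 replicates 1, 2 and 3. The lowest vehicle library thus lay well above the highest AVE0991 library, and the AVE0991 values were close together. The log2 fold change was -0.63 (SE 0.09, edgeR adjusted p = 0.043). AVE0991 replicate 1, whose cerebellar markers were at the vehicle level, had a value like that of the other AVE0991 libraries. The part of cerebellar transcripts in the Hsp90b1 difference was not tested. Without replicates 2 and 3 the log2 fold change was -0.62, a value of 1 AVE0991 library against 3 vehicle libraries with the spread taken from the vehicle group alone. Leaving out vehicle replicate 1, 2 or 3 or AVE0991 replicate 2 or 3 gave an edgeR adjusted p of 0.0973 to 0.227, with log2 fold changes of -0.65 to -0.58. In each of these 5 fits edgeR called 0 of all genes tested. With a correction of each library for transcript GC content, which is described with the GC values, the log2 fold change was -0.32 (SE 0.10, adjusted p = 0.241).

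Hspa5, which encodes BiP, the HSP70 of the ER and the partner of GRP94, stood at 175, 177 and 198 CPM in vehicle libraries and at 144, 169 and 161 CPM in AVE0991 libraries. The groups did not overlap, but the difference was small against the spread (log2 fold change -0.22, SE 0.11, adjusted p = 0.27). Hspa13, an HSP70-type ATPase of microsomes, was tight within groups, at 26.2, 25.7 and 26.1 CPM against 19.5, 18.8 and 18.4 CPM. Its log2 fold change of -0.46 (SE 0.08) narrowly missed the threshold with edgeR (adjusted p = 0.0595), and after the GC correction it was 0.005. Dnajb9, a J protein that hands misfolded proteins to degradation, stood at 20.9, 23.8 and 26 CPM against 17.8, 16.8 and 18.3 CPM (-0.42, SE 0.11, adjusted p = 0.114), and after the GC correction at -0.01. Dnajc10, a J protein that reduces disulfide bonds, had a log2 fold change of -0.27 (SE 0.11), again with no overlap between groups. The remaining 9 ER genes ranged from -0.39 to 0.12 on the log2 scale. In 5 of the 14 ER genes AVE0991 values were wholly below vehicle values, in 1 wholly above. Over all genes those shares were 16.3% and 14.3%. The group median was -0.11, and -0.01 after the GC correction.

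The promoters of Hsp90b1 and Hspa5 are shown because both hold the ER stress element, the sequence through which the unfolded protein response acts, while only Hsp90b1 passed the test. The element was searched as CCAAT, 9 bases of any kind and CCACG, on both strands, in the 250 bases before and 50 after each gene start, in sequence from RefSeq (GRCm38.p6), which held 58 of the 72 genes. It was found for 3 of the 58 (5.17%), Hsp90b1, Hspa5 and Dnajc3. Some genes have several promoters, and by promoter it was in 3 of 75, against 39 of 32851 promoters (0.119%). The 250 bases before the start are printed 5′ to 3′ with the element in capitals.
Hsp90b1 (chr10:86705445-86705694, minus strand): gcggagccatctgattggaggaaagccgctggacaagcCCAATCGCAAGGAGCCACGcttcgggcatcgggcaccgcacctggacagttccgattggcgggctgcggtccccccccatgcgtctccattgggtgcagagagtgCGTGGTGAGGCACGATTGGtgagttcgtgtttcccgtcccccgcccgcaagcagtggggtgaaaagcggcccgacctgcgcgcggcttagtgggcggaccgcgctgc
Hspa5 (chr2:34771840-34772089, plus strand): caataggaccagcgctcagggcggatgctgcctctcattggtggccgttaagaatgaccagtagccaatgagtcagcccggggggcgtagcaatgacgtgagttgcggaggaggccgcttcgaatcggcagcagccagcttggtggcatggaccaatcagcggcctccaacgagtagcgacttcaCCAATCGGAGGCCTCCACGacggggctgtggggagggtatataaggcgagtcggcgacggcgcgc
Hsp90b1 holds an exact match once in each orientation, starting 212 and 107 bases before the start. Hspa5 holds an exact match once, 65 bases before the start. Copies with a mismatch were not searched. In Dnajc3, which encodes an ER J protein that inhibits the kinase PERK, the match within the window chr14:118937682-118937981 (plus strand) was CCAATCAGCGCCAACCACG. The end of that window, after the start, was not found in a GENCODE transcript of Dnajc3. The start of Dnajc3 is therefore not settled. Dnajc3 stood at 40.4, 39.5 and 45.3 CPM in vehicle libraries and 33.6, 46.7 and 42.2 CPM in AVE0991 libraries, with a log2 fold change of -0.03 (SE 0.14). The groups overlapped. Hsp90b1, Hspa5 and Dnajc3, which share the element, thus had log2 fold changes of -0.63, -0.22 and -0.03. A match is a description of the sequence and does not show binding.

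**Figure D3:**
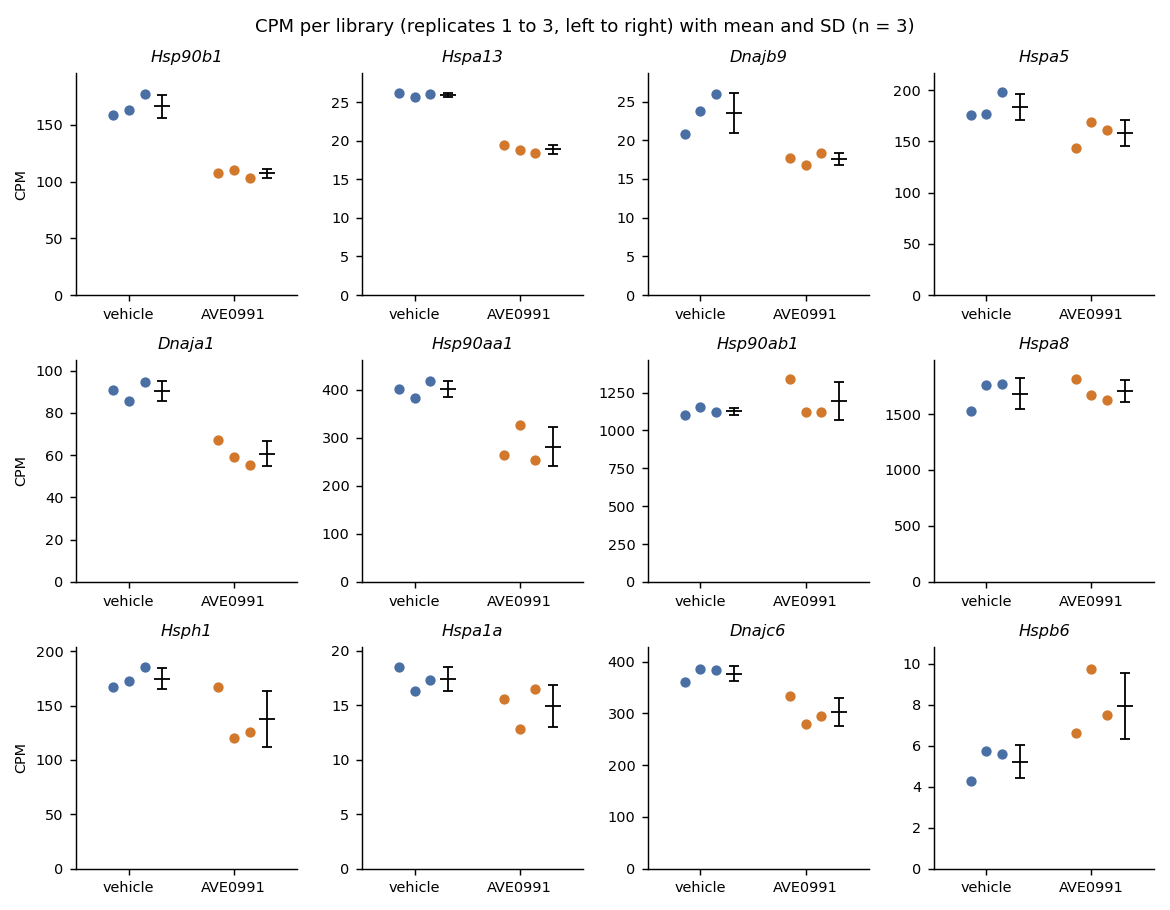
CPM of 12 chaperone genes in each library (blue vehicle, orange AVE0991, replicates 1 to 3 from left to right) with the mean and SD (n = 3), each axis starting at 0. Hsp90b1, Hspa13, Dnaja1 and Hsp90aa1 show no overlap between groups, whereas Hspa8 and Hsp90ab1 overlap.

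Of the cytosolic HSP90 genes, the inducible one was lower in each AVE0991 library, and the constitutive one overlapped between groups. Hsp90aa1 stood at 402, 384 and 418 CPM in vehicle libraries and at 264, 328 and 254 CPM in AVE0991 libraries, with every AVE0991 value below every vehicle value. Its log2 fold change was -0.51 (SE 0.13, edgeR adjusted p = 0.104), -0.31 after the GC correction, and DESeq2 called it (adjusted p = 0.011). Hsp90ab1 stood at 1103, 1152 and 1120 CPM against 1342, 1122 and 1119 CPM (0.09, SE 0.12, adjusted p = 0.695). AVE0991 replicate 1 alone was high, and without it or after the GC correction the sign turned (-0.004 and -0.01). The ratio of Hsp90ab1 to Hsp90aa1 in FPKM was 3.12, 3.42 and 3.05 in vehicle libraries and 5.79, 3.91 and 5.02 in AVE0991 libraries. All 3 AVE0991 ratios exceeded all vehicle ratios, with means of 4.91 ± 0.949 and 3.2 ± 0.196 (SD, n = 3 each). The ratio uses FPKM without the GC correction, and the genes differ in GC content (51.0% for Hsp90ab1, 43.7% for Hsp90aa1). The ratio was not tested for the difference between groups.

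Among the 11 cytosolic HSP70 and HSP110 genes none was called, and the median log2 fold change was -0.22. Hspa8, by far the most abundant, stood at 1525, 1761 and 1764 CPM in vehicle libraries and at 1815, 1672 and 1626 CPM in AVE0991 libraries. The groups overlapped, the difference was 0.02 on the log2 scale (SE 0.12, edgeR adjusted p = 0.945), and its sign turned with the tool and with single libraries. Hspa8 has many processed pseudogenes of near-identical sequence, so its count depends on how the authors assigned shared reads. Hspa12a, a distant HSP70 relative of the brain, stood at 202, 207 and 190 CPM against 168, 167 and 136 CPM, and Hspa4, an HSP110-type exchange factor, at 195, 203 and 205 CPM against 176, 164 and 168 CPM. Both showed no overlap between groups, with log2 fold changes of -0.35 (SE 0.12, adjusted p = 0.15) and -0.25 (SE 0.09, adjusted p = 0.162). Hspa12a stood at -0.40 and Hspa4 at -0.20 after the GC correction.

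Hsph1, the inducible HSP110, stood at 167, 172 and 185 CPM in vehicle libraries and at 167, 120 and 126 CPM in AVE0991 libraries. Replicate 1 of the AVE0991 group was at the vehicle level while replicates 2 and 3, the libraries with high cerebellar markers, were lower, and the part of those transcripts in this was not tested. The log2 fold change was -0.34 (SE 0.15, edgeR adjusted p = 0.213), and -0.51 without AVE0991 replicate 1 (adjusted p = 0.0291), in a fit that called 995 of all genes lower and 1386 higher. Hspa4l, another HSP110-type gene, split the other way, at 134, 137 and 163 CPM against 88.6, 137 and 96.9 CPM. Here replicate 2 matched the vehicle libraries, and after the GC correction the log2 fold change went from -0.43 to 0.06. The inducible HSP70 genes Hspa1a and Hspa1b are near-identical copies, so reads may have been split between them. Hspa1a stood at 18.6, 16.4 and 17.3 CPM against 15.6, 12.8 and 16.5 CPM, and Hspa1b at 23.5, 13.1 and 14 CPM against 14.4, 8.84 and 14 CPM. Both overlapped between groups, with log2 fold changes of -0.22 (SE 0.13) and -0.44 (SE 0.29), and vehicle replicate 1 alone was high for Hspa1b. At 4.38 to 6.51 FPKM as group means, these inducible genes stood far below Hspa8 per length. The other 4 genes of the group ranged from -0.01 to 0.17.

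For the 10 tested DnaJ A and B genes of cytosol and nucleus, the main J proteins of cytosolic HSP70, the median log2 fold change was -0.17, and -0.23 after the GC correction, with 9 of 10 below 0 in both cases. For 5 of them AVE0991 values were wholly below vehicle values, as for 16.3% of all genes, and none was called by edgeR. Dnaja1, a J protein that works with Hspa8, stood at 91.1, 85.4 and 94.9 CPM in vehicle libraries and at 67.3, 59.2 and 55.5 CPM in AVE0991 libraries. The groups were well apart, with a log2 fold change of -0.58 (SE 0.11) that narrowly missed the threshold with edgeR (adjusted p = 0.0595), was called by DESeq2 (adjusted p = 0.00169) and was -0.20 after the GC correction. Its paralog Dnaja2 stood at 75.6, 82.3 and 86.4 CPM against 70.4, 51.3 and 64.2 CPM (-0.39, SE 0.14, adjusted p = 0.155).

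Dnajb4, an inducible type B J protein, stood at 32, 31.2 and 37 CPM in vehicle libraries and 27.1, 29.5 and 26 CPM in AVE0991 libraries (-0.28, SE 0.11, edgeR adjusted p = 0.186). Its groups did not overlap, but the GC-corrected value was 0.04. Dnajb6, a suppressor of polyglutamine aggregation, and Dnajb1, the classic HSP40, also showed no overlap, with small differences. Dnajb6 had a log2 fold change of -0.15 (SE 0.08) and Dnajb1 of -0.09 (SE 0.08). After the GC correction both stood farther from 0, at -0.24 and -0.23, with adjusted p of 0.276 and 0.298. Dnaja4 (-0.19), Dnajb5 (-0.12) and Dnajb2 (0.08), a neuronal J protein of the proteasome pathway, overlapped between groups. Dnajb5 was lowest in AVE0991 replicate 2, at 52 CPM against 80 and 88.1 CPM in replicates 1 and 3.

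**Figure D4:**
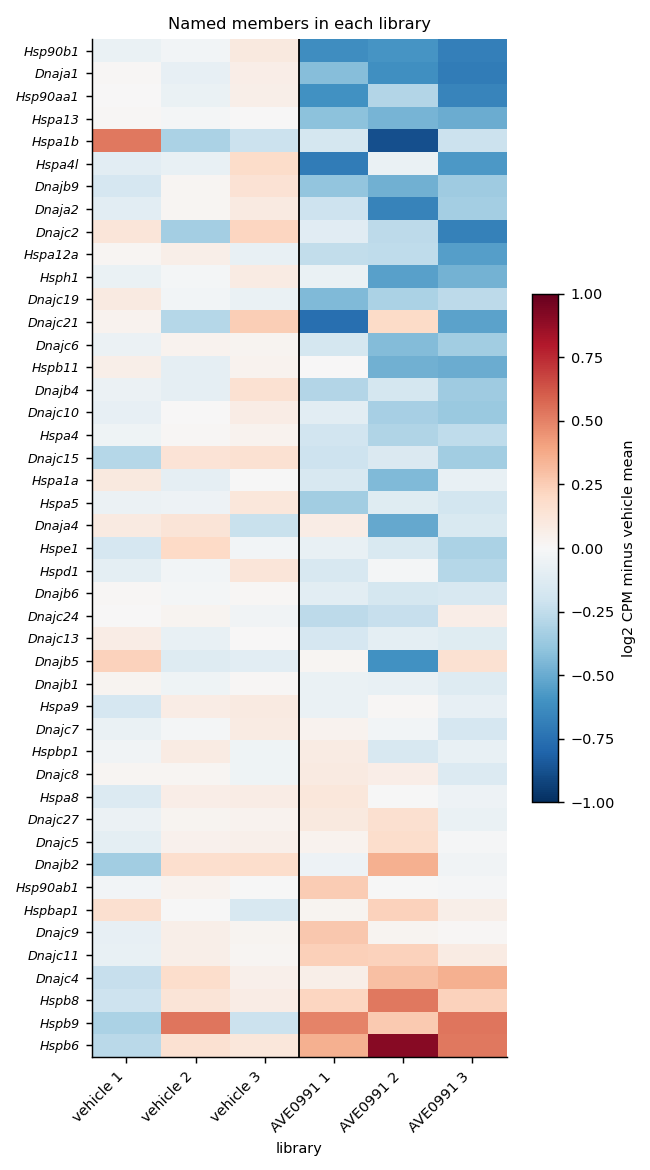
Log2 CPM minus the vehicle mean for the 45 chaperone genes named here, with 1 column per library and the color scale from -1 to 1. The rows at the top, led by Hsp90b1, Dnaja1 and Hsp90aa1, are blue in all 3 AVE0991 libraries, and Hspb6 and Hspb8 at the bottom are red in all 3.

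A list of 14 members linked to HSF1, which runs across these groups (Hspa1a, Hspa1b, Hspa4l, Hspa8, Hsph1, Hsp90aa1, Hsp90ab1, Hspd1, Hspe1, Dnaja1, Dnaja4, Dnajb1, Dnajb4 and Dnajb5), showed a median of -0.20 on the log2 scale, with 12 below 0. The list includes Hspa8 and Hsp90ab1, which are mainly constitutive in the brain and were the 2 above 0. None was called by edgeR, and DESeq2 called 2 lower, Dnaja1 and Hsp90aa1. Over all genes edgeR called 0.83% lower and DESeq2 6.56%. After the GC correction the median was -0.21, with 11 below 0, beside -0.02 for all genes. Their median deviation was -0.11, -0.23 and -0.25 in AVE0991 replicates 1, 2 and 3 and -0.01, -0.05 and 0.04 in vehicle libraries, so every AVE0991 library lay below every vehicle library. Without AVE0991 replicates 2 and 3 the median log2 fold change was -0.11. The genes share libraries and are not replicates of each other. The list was drawn up with earlier results of these data known. A separate list of heat shock factors and further HSF1 targets, given below, did not share this shift before the GC correction. Of its 14 tested genes 8 lay above 0 and 6 below, around a median of 0.03. After the GC correction 5 lay above 0 and 9 below, around a median of -0.04. The uncorrected deviations of this list were 0.05, 0.08 and -0.09 in AVE0991 replicates 1, 2 and 3 and -0.13, 0.06 and 0.14 in vehicle libraries, which overlap. Whether HSF1 activity differed was not tested.

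The heat shock element, the HSF1 binding sequence, was searched as GAA, TTC and GAA with 2 bases of any kind between them, or as TTC, GAA and TTC spaced alike, on both strands. It was found in 4 of the 58 genes with a RefSeq promoter (6.9%). By promoter it was in 6 of their 75, against 198 of 32851 promoters (0.603%). Promoters of the same gene, or of neighbours such as Hspe1 and Hspd1, can overlap, so a site can be counted more than once. The matches are shown because they mark genes of different roles and because Hspe1 and Hspd1, which encode HSP10 and HSP60, share 1 element between divergent starts. Each line gives the coordinates of the 300-base window and the matched letters in capitals, 5′ to 3′ on the strand of the gene.
Hsph1 (chr5:149636266-149636565, minus strand): TTCTGGAAAGTTC
Hspe1 (chr1:55087898-55088197, plus strand): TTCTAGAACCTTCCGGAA
Hspd1 (chr1:55087883-55088182, minus strand): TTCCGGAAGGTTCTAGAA
Dnajb6 (chr5:29735648-29735947, plus strand): GAATCTTCCGGAA
The Hsph1 match lies after the annotated start and the others before it. The median log2 fold change of these 4 genes was -0.17, with 0 calls. The shorter form, GAA and TTC or TTC and GAA with 2 bases between them, which every longer match contains, was present in 14 of 58 genes (24.1%). By promoter it was in 16 of their 75, against 15.1% of all promoters. These 14 genes, which include Hspb6 and Hspb8 from outside the HSF1-linked list, had a median of -0.20. Hspa8, Hsp90aa1 and Hsp90ab1 were not among the 58.

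The median of the 10 mitochondrial genes was -0.08 on the log2 scale, with 6 below 0 and none called. Hspd1 stood at 78.2, 82.2 and 90.8 CPM in vehicle libraries and 74.6, 82.6 and 68.7 CPM in AVE0991 libraries, and Hspe1 at 12.3, 15.9 and 13.6 CPM against 13.2, 12.5 and 11.1 CPM. Both overlapped between groups, at -0.15 (SE 0.11) and -0.18 (SE 0.14). Hspa9, the mitochondrial HSP70 mortalin, stood at 148 ± 14.2 and 143 ± 4.95 CPM (SD, n = 3 each; -0.05). Dnajc19, a J protein of the import motor, was the gene of this group with the smallest p, at 13.5, 12.5 and 12.2 CPM against 9.33, 10.2 and 10.6 CPM (-0.34, SE 0.11, edgeR adjusted p = 0.143). Its groups did not overlap, and its GC-corrected value was 0.09. Dnajc15, its paralog, stood at -0.25 with overlap. On the other side, Dnajc11, a J protein of the cristae junctions, was at 49.4, 54.2 and 52.9 CPM against 61.5, 61 and 55.2 CPM, without overlap (0.18, SE 0.09, adjusted p = 0.276), and Dnajc4 at 0.23 with overlap.

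The small heat shock protein group, which counts Hspb11 by its symbol, had a positive median, 0.33 over 6 tested genes (0.16 after the GC correction). Of the 6, 3 stood below 1 CPM in every library. Hspb6, which encodes HSP20, stood at 4.3, 5.75 and 5.62 CPM in vehicle libraries and 6.64, 9.75 and 7.49 CPM in AVE0991 libraries. Every AVE0991 value exceeded every vehicle value, and replicate 2 was highest. The log2 fold change of 0.61 (SE 0.20) did not pass with edgeR (adjusted p = 0.148) and passed with DESeq2 (adjusted p = 0.0487). After the GC correction it was 0.43 (adjusted p = 0.326). Hspb8, which with BAG3 routes proteins to autophagy, stood at 17.4, 22 and 21.2 CPM against 23.3, 28.9 and 23.5 CPM. Its groups did not overlap either, with a log2 fold change of 0.32 (SE 0.14, adjusted p = 0.217). Astrocyte markers showed a median of 0.64 on the log2 scale and deviations of 0.35, 0.72 and 0.70 in AVE0991 replicates 1, 2 and 3, and whether they had a part in the values of Hspb6 and Hspb8 was not tested. Hspb9 stood at 0.42 (SE 0.38) at 0.22 to 0.431 CPM, and Hspb11 at -0.31 (SE 0.20).

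Of the DnaJ C genes of synapse and endosome, Dnajc6, which encodes auxilin, the J protein that strips clathrin from vesicles in neurons, stood at 361, 385 and 385 CPM in vehicle libraries and at 334, 279 and 295 CPM in AVE0991 libraries. The groups did not overlap, and the log2 fold change was -0.32 (SE 0.11, edgeR adjusted p = 0.153; -0.28 after the GC correction). Dnajc13, a J protein of endosomes, also showed no overlap, at 64.1, 57.8 and 60.9 CPM against 54.1, 56.8 and 56.1 CPM, with a difference of -0.13 (SE 0.09). Dnajc5, the cysteine string protein of synaptic vesicles, stood at 287 ± 16.4 and 301 ± 21.1 CPM (SD, n = 3 each; 0.07), and Dnajc27 at 162 ± 5.54 and 169 ± 13.4 CPM (0.06). Both overlapped. Summed neuronal markers ranged over 4678 to 5559 CPM in vehicle and 4408 to 4839 CPM in AVE0991 libraries, and their part in the Dnajc6 values was not tested.

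All 9 DnaJ C genes of nucleus, ribosome and cytosol overlapped between groups. Of all genes 16.3% lay wholly below and 14.3% wholly above the vehicle values. Dnajc2, a ribosome-associated J protein, stood at -0.35 (SE 0.21) and Dnajc21, of ribosome biogenesis, at -0.32 (SE 0.27), and both were near 0 after the GC correction (-0.01 and -0.02). Dnajc9, a histone chaperone, stood at 0.11, Dnajc24, of diphthamide synthesis, at -0.13, Dnajc8, a splicing-associated J protein, at 0.01, and Dnajc7, a tetratricopeptide J protein, at -0.05 on the log2 scale. The cofactor genes Hspbp1, an HSP70 exchange factor, and Hspbap1 stood at -0.05 and 0.10. The adjusted p was at least 0.354 for all 11 of these genes.

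Differences among the chaperone genes ran with the GC content of their transcripts. Across the 68 genes the log2 fold change had a Spearman rho of 0.58 with GC content, beside 0.50 across 16864 genes, a description over genes that share the same 6 libraries. At up to 43% GC all 11 chaperone genes were below 0, with a median of -0.39 beside -0.42 for all genes in that range. From 43% to 47% the medians were -0.13 and -0.12, from 47% to 52% they were -0.01 and 0.05, and above 52% they were 0.08 and 0.18. Of the 16 genes with AVE0991 values wholly below vehicle values, 7 lay at up to 43% GC and 1 above 52%, where 4 of the 5 genes with the opposite order lay. Hsp90b1 has 42.1% GC, Hspa13 39.8%, Dnaja1 41.2% and Hsp90aa1 43.7%, whereas Hspb6 has 54.9%. After the correction rho was -0.23 among the chaperone genes, beside -0.002 across the 16864 genes. The median of the chaperone genes was then -0.06, and edgeR called 0 of them, with 9 at an unadjusted p under 0.05. Over all genes it then called 0 lower and 1 higher, with 3111 at an unadjusted p under 0.05. The genes farthest from 0 were then Hspa1b (-0.66), Hspa1a (-0.44), Dnajc1 (-0.43), Hspb6 (0.43) and Hspb3 (-0.41), a selection made after the values were seen. Their corrected adjusted p was 0.256 or more.

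**Figure D5:**
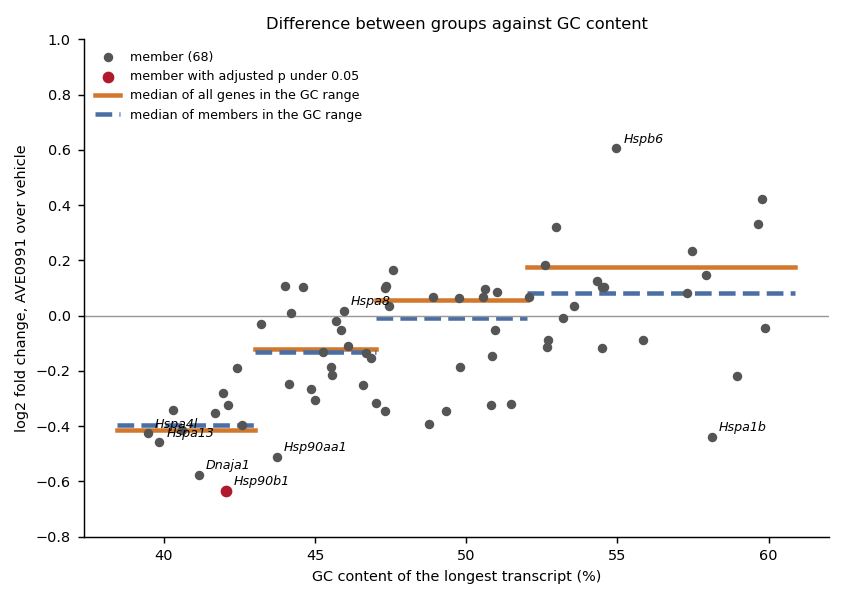
Log2 fold change of AVE0991 over vehicle against the GC content of the longest transcript for the 68 genes, with medians over 4 GC ranges for the chaperone genes (blue dashes) and all genes (orange lines). The medians of both run from -0.39 and -0.42 at up to 43% GC to 0.08 and 0.18 above 52%, and Hsp90b1 (red) lies below its range's median.

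Other genes of the same pathways were read from 5 lists, beside 0.83% of all genes called lower and 0.0344% called higher by edgeR. Of 23 HSP70 and HSP90 cochaperones 0 passed in either direction, and their median log2 fold change was -0.06, with 8 above 0 and 15 below. Among them Ptges3, the HSP90 cochaperone p23, stood at -0.40 (edgeR adjusted p = 0.0923). Of 14 tested heat shock factors and HSF1 targets 0 passed, with a median of 0.03, 8 above 0 and 6 below. After the GC correction their median was -0.04, with 5 above 0 and 9 below. The uncorrected values lay far apart in both directions. Bag3, a cochaperone of HSP70 in selective autophagy and an HSF1 target, stood at 11.8, 15.4 and 17.7 CPM in vehicle libraries and 17.2, 40.6 and 30.3 CPM in AVE0991 libraries. AVE0991 replicate 1 lay within the vehicle range. The log2 fold change of Bag3 was 0.97 (SE 0.32, edgeR adjusted p = 0.146; DESeq2 adjusted p = 0.0275), and the gene was named after its values were seen. Cacybp stood at -0.77 (adjusted p = 0.0509) and the HSP90 partner Chordc1 at -0.60 (adjusted p = 0.0716), which after the GC correction stood at -0.35 and 0.17. In the chaperonin TRiC and prefoldin list, 1 of 14 was lower and 0 higher, with a median of -0.09, 6 above 0 and 8 below. Vbp1, a prefoldin subunit, fell from 14.7 ± 1.48 to 8.48 ± 0.26 CPM (SD, n = 3 each), by 0.79 on the log2 scale (adjusted p = 0.0465), with 35.5% GC and a GC-corrected adjusted p of 0.994. Pfdn4, another prefoldin subunit, stood at -0.91 (adjusted p = 0.0898).

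Of 26 further genes of the ER unfolded protein response 0 passed, and their median was 0.07, with 15 above 0 and 11 below. Pdia3, a disulfide isomerase that folds glycoproteins, stood at 109 ± 7.54 and 88.3 ± 3.17 CPM (SD, n = 3 each; log2 fold change -0.31, edgeR adjusted p = 0.132), and Derl1, of ER-associated degradation, at 58 ± 4.23 and 73.5 ± 7.15 CPM (0.34, adjusted p = 0.142). These ER genes lay on both sides of 0. Of 15 mitochondrial folding and protease genes 1 was lower and 0 higher. Yme1l1, a protease of the inner membrane, fell from 60.4 ± 1.56 to 32.7 ± 3.11 CPM, by 0.89 on the log2 scale (adjusted p = 0.0374), and stood at -0.29 after the GC correction, while the list median was 0.12, with 12 above 0 and 3 below. Spg7, a subunit of another inner-membrane protease, stood at 0.31 (adjusted p = 0.127).

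In the authors' deposited table, made with DESeq2, 4 of the 72 genes had a q-value under 0.05, all lower in AVE0991 libraries. Of 36065 gene rows, 1586 (4.4%) had such a q-value in either direction, 988 of them lower. The authors' deposited table gives log2 fold changes of -0.61 for Hsp90b1 (q = 5.84e-05), -0.56 for Dnaja1 (q = 0.00753), -0.44 for Hspa13 (q = 0.0122) and -0.49 for Hsp90aa1 (q = 0.034).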

How the data were processed

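RNA of 6 libraries was analysed. Per the labels' protocols, Trizol was used to isolate total RNA, which after removal of ribosomal RNA was turned into dUTP-marked libraries and sequenced from DNA nanoballs. HISAT and mm9 are named in the submitters' processing notes. The annotation, strand use, counter and versions were not given in the sources used here. Values deposited by the authors were an estimated count and an FPKM value per gene and library, and a comparison table whose log2 fold changes, p-values and q-values come from DESeq2 per the file headers. Of the estimated counts 81.6% were whole as written.

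Estimated counts of all 36210 gene rows were rounded and tested in R 4.3.3 with edgeR 4.0.16 (filterByExpr, TMM, robust quasi-likelihood F test, no covariates), with Benjamini-Hochberg adjustment over 20363 genes. Dividing the absolute log2 fold change by the root of F gave its SE, and CPM uses TMM library sizes. The biological coefficient of variation was 24.7%. Libraries held 44583296 to 50066692 counts, and all pairs differed by more than sampling noise (chi-square per gene at least 16.4), so all counted separately. For the GC correction, each gene's log2 CPM was taken as a deviation from its mean over the libraries fitted. A per-library spline (5 degrees of freedom) of these deviations on GC content was removed. Group differences that run with GC content are thereby removed too. GC content was that of the longest GENCODE M21 transcript, known for 82.8% of tested genes and all 72 chaperone genes. The reference is GRCm38, so it served only for names, GC content and promoter sequence.

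The genes and lists were chosen with earlier results of these data known. Named genes were those called, in each role group the 4 with the smallest p and the 2 with the highest FPKM, the 14 HSF1-linked members, and the 3 largest differences per direction; beyond the chaperone genes, called pathway genes and the 2 with the smallest p per list, of which 1 is not reported here. Genes under the count filter, Dnajc3, Bag3 and genes singled out after the GC correction were named after their values were seen. Alternatives were DESeq2 1.42.0, limma 3.58.1 (voom with quality weights), relative log expression size factors, filters of none or a mean of 1 CPM, a fit with 11824 circular RNA rows, the GC correction, a block on replicate number, each library left out, and, added after seeing the data, AVE0991 replicates 2 and 3 left out.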

Additional observations from a re-analysis of the deposited data

How the results depend on the processing

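Of the values of 45 named genes under 16 alternative settings, 655 kept direction and side of the threshold, 40 changed sign, 14 passed where they had not and 10, all of Hsp90b1, no longer passed. The count of chaperone genes called lower, 1 with edgeR, was 5 with DESeq2, 4 with limma-voom, 3 with a mean of at least 1 CPM, 2 without a filter, and 0 with circular RNA rows in the fit (14 of 68 at an unadjusted p under 0.05), after the GC correction (9), and without AVE0991 replicates 2 and 3 (9). Over all genes the count called lower moved too, from 169 to 1335 with DESeq2, 721 with limma-voom, 328 with a mean of at least 1 CPM, 379 without a filter, 1 with circular RNA rows, and 0 after the GC correction and without AVE0991 replicates 2 and 3. Leaving out single libraries gave 0 to 4, with 4 (Dnaja1, Hsp90b1, Hspa13 and Hsph1) without AVE0991 replicate 1 and 0 (7 to 12 unadjusted) without any other. Over all genes edgeR called 995 lower and 1386 higher without AVE0991 replicate 1, and 0 (3205 to 3818 unadjusted) without any other single library. The count called higher, 0 (of 13 genes at an unadjusted p under 0.05 in either direction), was 1 with DESeq2 and 0 elsewhere. The adjusted p of Hsp90b1 ranged from 8.23e-07 (DESeq2) to 0.392, and with circular RNA rows it was 0.0597.

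The median log2 fold change of the 68 genes was -0.059 after the GC correction, and that of the 14 HSF1-linked members was -0.11 without AVE0991 replicates 2 and 3. After the GC correction the sign turned for Dnajb2 (-0.13), Dnajb4 (0.038), Dnajc19 (0.085), Hsp90ab1 (-0.011), Hspa13 (0.0046), Hspa4l (0.062) and Hspa9 (0.035). With limma-voom it turned for Dnajb2 (-0.044), Dnajb5 (0.0037), Dnajc8 (-0.032) and Hspa8 (-0.051), with a mean of at least 1 CPM for Dnajc8 (-0.016) and Hspa8 (-0.0064), and with circular RNA rows for Dnajc8 (-0.0067). Without AVE0991 replicates 2 and 3 it turned for Dnaja4 (0.072), Dnajb2 (-0.066), Dnajb5 (0.015), Dnajc7 (0.044), Hspb11 (0.011) and Hspbp1 (0.093). Leaving out single libraries, log2 fold changes ranged from -0.061 to 0.17 for Dnajb2, -0.27 to 0.082 for Dnajb5, -0.095 to 0.0066 for Dnajc7, -0.031 to 0.079 for Dnajc8, -0.0036 to 0.13 for Hsp90ab1, -0.028 to 0.054 for Hspa8 and -0.11 to 0.011 for Hspbp1. The cause of these turns was not tested.

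Replicate numbers are shared between groups, but same-numbered libraries did not deviate together (r = -0.02, 0.09 and -0.35), and not every library correlated best with its own number. With the replicate block 0 chaperone genes were called lower (9 at an unadjusted p under 0.05; Hsp90b1 adjusted p = 0.134), and 0 of all genes. With the replicate block and GC correction 0 were called (4 unadjusted), the median was -0.060, and the sign turned for Dnajb2 (-0.12), Dnajb4 (0.039), Dnajc19 (0.086), Dnajc27 (-0.0027), Hsp90ab1 (-0.017), Hspa13 (0.0033), Hspa4l (0.043) and Hspa9 (0.038). Genes with few counts, such as Hspb9, are limited by depth.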
